A study of Mus musculus with 15 samples.

Results

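The subject here is the heart muscle cell 26 days after a whole-body exposure to protons, compared with sham. It rests on 5 of the 15 arrays of the series, chosen by their titles: 2 arrays of day 26 and 3 sham arrays. The animals of every group were male C57Bl/6NT mice, 8 to 9 months old. The exposed mice received 90 cGy (0.9 Gy) of 1 GeV protons at 0.17 Gy per minute, with a linear energy transfer of 0.22 keV per µm, and the sham mice received no radiation. Left ventricular cells were freed with collagenase and selected on a calcium gradient, which left more than 90% calcium-tolerant cardiomyocytes, and the submitters state that some inflammatory or endothelial cells could remain. Total RNA went onto Affymetrix Mouse Gene 1.0 ST arrays. Day 26 has no sham of its own: sham replicates 1 and 2 belong to day 1 and the third sham array to day 3, so that time, housing and any handling that changed with it cannot be told apart from the exposure. The design text of the series gives the later days as 7, 14 and 28 where the titles give 5, 12 and 26; the titles are used here. The other proton arrays, from days 1, 3, 5 and 12, served to estimate the spread and as a second comparison. Nothing in the labels says that arrays of one group came from separate mice, so the p-values measure the spread between these samples, which may be technical.

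Secreted and membrane proteins are folded in the endoplasmic reticulum, a membrane compartment filled with chaperones, disulfide isomerases and sugar-trimming enzymes. When folding falls behind, the sensors ATF6, IRE1 and PERK start the unfolded protein response, which raises transcription of the chaperones and of the machinery that sends misfolded proteins back to the cytosol for destruction. ATF6 and XBP1 act on these genes through a short promoter sequence, the endoplasmic reticulum stress element. In cardiomyocytes the compartment is close to the sarcoplasmic reticulum, which stores the calcium for contraction, and the response has been linked to overload and ischaemia of the heart.

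The deposited values are log2 signals, so a difference of 1 is a doubling. One probe set was used for each of 12102 genes, those with a mean signal over the median probe set. Of these, 5 passed the test of day 26 against sham (limma, Benjamini-Hochberg adjusted p at most 0.05), 0.0413% of those tested, with 3 higher at day 26 (0.0248%) and 2 lower (0.0165%). At an adjusted p of at most 0.06 the count was 29, with 19 higher and 10 lower, and at an unadjusted p of at most 0.05 it was 1727 (14.3%), of which 8.6% of all genes were higher and 5.67% lower. A looser description needs no model: in 2986 genes (24.7%) both day 26 arrays lay above all 3 sham arrays, and in 1712 (14.1%) both lay below, 38.8% in all. Such separation is the most that 2 arrays against 3 can show, and even in 1 given direction its exact permutation p is no smaller than 0.1. It is used below only as a count beside these shares. The mean at day 26 was above that of sham in 58.8% of the genes, and the median difference was 0.05. That balance depended on scaling: genes higher made up 63.6% of the separated genes as deposited, 48.2% after quantile normalization and 31.3% after the arrays were set to equal medians, which moved the median difference of all genes to -0.05. Groups of genes are therefore given beside the median of all genes. The cells carried the identity on their label: all 15 cardiomyocyte markers listed were measured, with a mean signal of 11.90 and 11.84 on the day 26 arrays and 11.85, 11.92 and 11.94 on the sham arrays.

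Sdf2l1, a cofactor of the chaperone BiP in the endoplasmic reticulum, read 7.80 and 7.60 on the day 26 arrays and 6.58, 6.45 and 6.24 on the sham arrays. Both day 26 arrays were more than 1 log2 unit above the highest sham array, and the gene rose by 1.28 ± 0.16 (SE, n = 2 against 3), 2.42-fold, with a limma adjusted p of 0.0274. Syvn1, which encodes the ubiquitin ligase HRD1 that marks misfolded reticulum proteins for destruction, read 7.75 and 7.74 against 6.89, 7.19 and 7.03. The day 26 arrays agreed closely and the sham arrays lay lower. It rose by 0.71 ± 0.11, 1.63-fold, with a limma adjusted p of 0.0499. Pde7a encodes a phosphodiesterase that degrades cyclic AMP. Its signals were 8.46 and 8.49 against 7.80, 7.77 and 7.71, so that each group was tight and they lay far apart. The rise was 0.72 ± 0.09, 1.65-fold (limma adjusted p 0.0274).

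The genes that fell were Car14 and Zfp991. Car14 encodes a membrane carbonic anhydrase that faces the outside of the cell and takes part in pH control in muscle. It read 9.38 on both day 26 arrays and 9.90, 9.89 and 10.03 on the sham arrays, a fall of 0.56 ± 0.07 on the log2 scale, which is 1.48-fold lower (difference -0.56, limma adjusted p 0.0274). Zfp991 belongs to a large family of zinc finger genes with similar sequences, in which probes may not tell members apart. It read 5.40 and 5.70 against 6.64, 6.46 and 6.47, a difference of -0.98 ± 0.14 with a limma adjusted p of 0.0304. Its relative Zfp933 read 4.95 and 5.35 against 5.98, 6.10 and 5.81, with a difference of -0.81 ± 0.14 and an adjusted p of 0.0528. The relative did not pass. In RefSeq's GRCm38.p6 annotation, Pde7a lies on chromosome 3 from 19223108 to 19311322, Car14 on chromosome 3 from 95897768 to 95905117, Sdf2l1 on chromosome 16 from 17130138 to 17132383, Syvn1 on chromosome 19 from 6046576 to 6053718 and Zfp991 on chromosome 4 from 147132093 to 147180579.

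**Figure D1:**
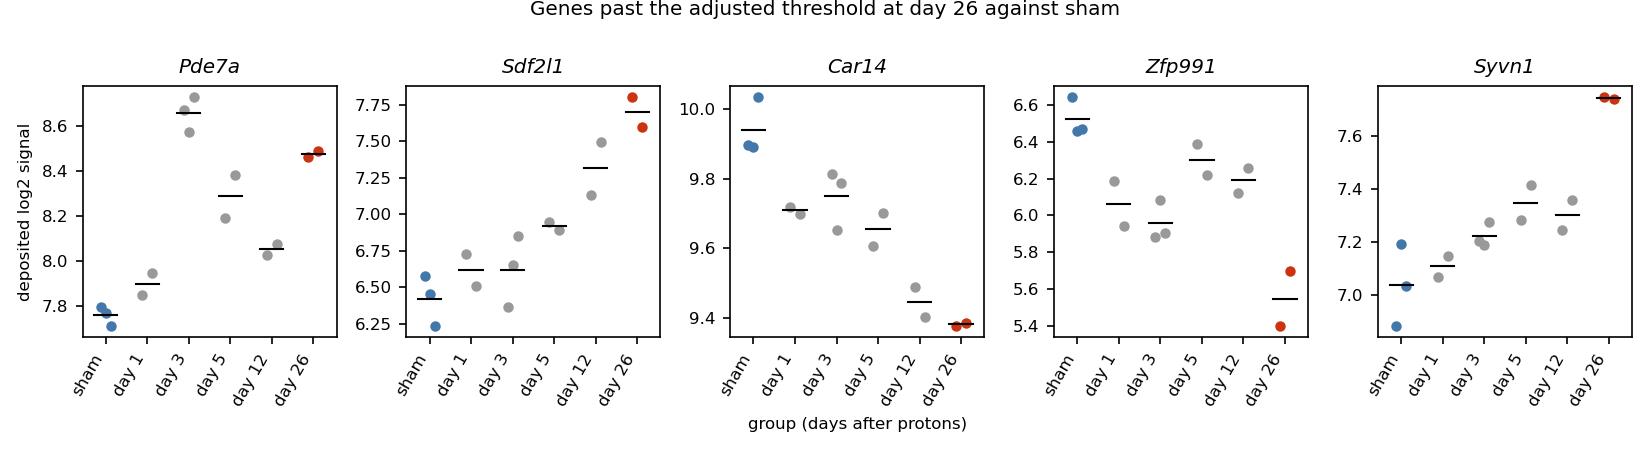
Deposited log2 signal of the 5 genes past the adjusted threshold, 1 panel a gene with its own vertical range, by group; each point is a sample and each bar a group mean. Sdf2l1 has group means of 6.62 on days 1 and 3, 6.92 on day 5, 7.32 on day 12 and 7.70 on day 26, and sham stands at 6.42.

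The earlier proton days placed these genes differently. Mean Sdf2l1 was 6.42 in sham, 6.62 on day 1, 6.62 on day 3, 6.92 on day 5, 7.32 on day 12 and 7.70 on day 26, so the 2 latest days were the highest. Car14 was 9.94 in sham and 9.71, 9.75, 9.65, 9.44 and 9.38 on the 5 proton days, below sham on each. Pde7a was 7.76 in sham, reached 8.66 on day 3 and was 8.05 on day 12 before the 8.48 of day 26. Syvn1 stayed between 7.11 and 7.35 on the earlier days and reached 7.74 on day 26, and Zfp991 stayed between 5.96 and 6.30 and was 5.55 on day 26.

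The sizes of the 5 differences were steadier than their calls. Over the alternatives that were run, Sdf2l1 stayed between 1.13 and 1.38, Pde7a between 0.61 and 0.74, Syvn1 between 0.60 and 0.79, Car14 between -0.67 and -0.51, and Zfp991 between -1.12 and -0.83. None of the 5 passed when day 26 replicate 1, day 26 replicate 2 or any of the 3 sham arrays was left out, nor without either day 1 proton array or day 5 replicate 3, which enter only through the estimate of the spread. Without day 3 replicate 1 only Sdf2l1 passed, and without day 3 replicate 2 or day 5 replicate 2 Syvn1 was lost. With equal array medians 0 genes passed. Without moderation of the variances Pde7a and Car14 still passed and the other 3 did not, without a variance trend Car14 and Syvn1 were lost, and with only sham and day 26 in the fit Syvn1 was lost.

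Reticulum chaperones stood above sham as a group. Of the 20 measured chaperones and cofactors, 19 had a mean above sham and the median difference was 0.39, against 0.05 over all genes. In 16 of the 20 (80%) both day 26 arrays lay above all sham arrays, where the share over all genes was 24.7%, and none lay below. Sdf2l1 alone passed the adjusted test. The median was 0.33 after quantile normalization and 0.28 with equal array medians, where 18 of the 20 exceeded the median of all genes.

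Hspa5 encodes BiP, the central chaperone of the compartment and the partner of Sdf2l1. It read 10.83 and 10.69 at day 26 and 10.18, 10.28 and 10.04 in sham, a difference of 0.59 ± 0.09 with an adjusted p of 0.0528. Manf, a secreted stress factor that binds BiP, read 8.44 and 8.16 against 7.59, 7.58 and 7.30, a difference of 0.81 ± 0.13 (adjusted p 0.0528). In both genes the lower day 26 array was above the highest sham array. Hyou1, a large chaperone that exchanges the nucleotide of BiP, read 8.06 and 7.61 against 6.98, 7.09 and 6.62, a difference of 0.93 ± 0.18. Hsp90b1, the reticulum form of HSP90, read 9.92 or more at day 26 against 9.21, 9.53 and 9.15, a difference of 0.66 ± 0.13. Both had an adjusted p of 0.0685, and neither overlapped sham. Creld2, a secreted stress protein with isomerase activity, read 8.36 and 7.79 against 7.19, 7.42 and 7.08, which is 0.84 ± 0.20. Calreticulin (Calr), which holds sugar-bearing proteins while they fold, was higher by 0.51 ± 0.11, and its partner calnexin (Canx) by 0.19 ± 0.08. Dnajc3 and Dnajb9, J-domain partners of BiP, were 0.52 ± 0.16 and 0.43 ± 0.12 above sham.

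The promoters of several of these genes hold the stress element. It is written CCAAT and CCACG parted by 9 bases of any kind, and was looked for on both strands of the windows from 250 bases before to 50 after each RefSeq gene start (GRCm38.p6). It stood in 37 of 27025 genes (0.137%). Of those 37, 16 were among the genes tested, and 15 of the 16 had a mean above sham, with a median difference of 0.50. In 13 of the 16 (81.3%) both day 26 arrays lay above all sham arrays, beside 24.7% over all genes. Inside the 5 lists of reticulum genes described here, the 10 genes with the element were all separated in this way and had a median of 0.55, while 36 of the 75 whose windows lacked it were, with a median of 0.25. Outside those lists 6 genes held it, and 3 of them were separated: Alg12, Pan2 and Zfp57. The 250 bases before the start are shown for 5 genes with the element and for Sdf2l1, which passed the test without an exact match; capitals mark the element, read on either strand.
Syvn1, chr19:6046326-6046575, plus strand: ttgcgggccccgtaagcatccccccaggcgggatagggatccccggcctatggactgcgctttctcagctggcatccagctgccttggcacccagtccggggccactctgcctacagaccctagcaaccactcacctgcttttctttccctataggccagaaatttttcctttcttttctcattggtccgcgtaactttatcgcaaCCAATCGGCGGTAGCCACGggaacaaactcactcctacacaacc
Hspa5, chr2:34771840-34772089, plus strand: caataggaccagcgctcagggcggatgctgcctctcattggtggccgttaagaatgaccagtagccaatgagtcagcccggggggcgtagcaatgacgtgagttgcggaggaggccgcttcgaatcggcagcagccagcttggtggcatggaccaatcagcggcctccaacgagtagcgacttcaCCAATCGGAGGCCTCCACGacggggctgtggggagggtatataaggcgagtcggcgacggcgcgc
Hsp90b1, chr10:86705445-86705694, minus strand: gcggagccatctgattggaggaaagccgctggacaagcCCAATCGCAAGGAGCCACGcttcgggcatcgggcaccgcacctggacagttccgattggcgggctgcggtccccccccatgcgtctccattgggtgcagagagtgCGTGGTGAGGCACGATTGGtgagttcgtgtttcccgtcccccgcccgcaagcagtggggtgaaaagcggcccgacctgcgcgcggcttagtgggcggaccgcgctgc
Creld2, chr15:88819396-88819645, plus strand: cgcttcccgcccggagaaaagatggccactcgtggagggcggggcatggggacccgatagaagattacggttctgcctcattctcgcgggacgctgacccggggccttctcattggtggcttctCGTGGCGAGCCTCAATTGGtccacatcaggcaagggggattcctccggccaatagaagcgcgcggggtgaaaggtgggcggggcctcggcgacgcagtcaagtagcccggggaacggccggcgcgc
Pdia6, chr12:17266339-17266588, plus strand: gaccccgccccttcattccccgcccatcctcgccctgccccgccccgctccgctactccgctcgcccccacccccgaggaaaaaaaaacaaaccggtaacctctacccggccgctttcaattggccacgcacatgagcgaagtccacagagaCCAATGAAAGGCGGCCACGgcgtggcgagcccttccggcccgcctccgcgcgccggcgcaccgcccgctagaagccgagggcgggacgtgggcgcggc
Sdf2l1, chr16:17132384-17132633, minus strand: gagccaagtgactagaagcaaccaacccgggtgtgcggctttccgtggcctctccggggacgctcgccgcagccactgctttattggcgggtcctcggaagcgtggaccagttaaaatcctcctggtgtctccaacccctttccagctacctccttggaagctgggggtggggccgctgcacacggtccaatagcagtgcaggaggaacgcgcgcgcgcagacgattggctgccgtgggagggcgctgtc

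In Syvn1 the element runs from 44 to 26 bases before the start, in Hspa5 from 65 to 47 and in Pdia6 from 98 to 80. Hsp90b1 holds it at 212 to 194 bases on the coding strand and at 107 to 89 on the other, and Creld2 has it on the other strand at 126 to 108. Related elements did not show the same shares. The second stress element, ATTGG and CCACG parted by 1 base, stood in 9 tested genes with a median difference of -0.02. Of the 9, 3 (33.3%) were separated above sham, beside 24.7% of all genes. The shorter TGACGTGG, a core bound by ATF6, stood in 107 tested genes with a median of 0.06 and 23.4% separated above sham. A match is only a match of letters, and binding was not measured.

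The disulfide isomerases, which make and rearrange the bonds of folding proteins, were less uniform. Of 17 measured, 13 had a mean above sham with a median of 0.29. Separated above sham were 7 (41.2%) and below 1 (5.88%, Tmx1, -0.23 ± 0.10), beside 24.7% and 14.1% of all genes. Without day 26 replicate 1 the median was 0.18. Pdia4 was the furthest: 8.69 and 8.57 at day 26 against 7.53, 7.61 and 7.29, a difference of 1.15 ± 0.23 with an adjusted p of 0.0867. Its day 26 arrays were about 1 log2 unit above the highest sham array, while a second, dimmer probe set of Pdia4 differed by 0.31. Pdia6 was higher by 0.66 ± 0.18, Pdia3 by 0.64 ± 0.16 and Ero1b, an oxidase that recharges the isomerases, by 0.48 ± 0.17. None of these passed the adjusted test.

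Among 19 measured genes of reticulum-associated degradation, the route that exports misfolded proteins to the proteasome, 14 had a mean above sham, with a median of 0.15. Separation above sham was seen in 8 (42.1%) and below in 1 (5.26%, Ufd1, -0.16 ± 0.11), beside 24.7% and 14.1% of all genes. Besides Syvn1, its scaffold Sel1l was higher by 0.40 ± 0.13. Edem1, a lectin-like protein that picks out misfolded glycoproteins, read 7.78 and 7.38 against 6.52, 6.61 and 6.41, a difference of 1.07 ± 0.32. Herpud1, an adaptor of the same ligase complex, read 10.33 and 10.43 against 9.63, 10.08 and 9.68, which is 0.58 ± 0.13. Neither overlapped sham, and neither passed, with adjusted p of 0.196 and 0.124.

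Of 18 sensors and targets of the unfolded protein response, 17 had a mean above sham, with a median of 0.34. Separated above sham were 11 (61.1%), beside 24.7% of all genes. Xbp1, the transcription factor that IRE1 activates by splicing, read 9.10 and 9.09 against 8.64, 8.63 and 8.33, a difference of 0.56 ± 0.11 (adjusted p 0.0805). These probes do not tell the spliced from the unspliced form. Ern1, which encodes IRE1 itself, was higher by 0.39 ± 0.15, and Eif2ak3, which encodes PERK, by 0.43 ± 0.21. On the PERK side, Ppp1r15b was higher by 0.66 ± 0.20, while its second, dimmer probe set was at -0.001. Asns and Chac1 of the same side were higher by 0.57 ± 0.19 and 0.52 ± 0.21. The arrays of Atf4, Atf3 and Ddit3, the transcription factors of that branch, overlapped sham: Ddit3 read 6.95 and 6.71 against 6.93, 6.18 and 7.25. Among 28 genes of the translocon, the signal peptidase and the oligosaccharyltransferase, 22 had a mean above sham and the median was 0.18. Separated above sham were 12 (42.9%) and below 1 (3.57%), beside 24.7% and 14.1% of all genes. The largest difference of the 28 was that of Sec61a1, the channel through which new proteins enter, at 0.50 ± 0.21.

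Over the 5 reticulum lists together, 102 genes were measured, 85 had a mean above sham, and the median was 0.26. Separated above sham were 54 (52.9%) and below 3 (2.94%), beside 24.7% and 14.1% of all genes. Markers of other cells moved with the same groups of arrays, as given further on. When the mean signal of the endothelial, fibroblast and macrophage markers was added to the model, the median of the 102 genes was 0.17 and that of the chaperones 0.33, while the isomerases came to 0.01 and the translocon genes to 0.07. Sdf2l1 was then 1.13 above sham and Syvn1 0.65. Plasma cells are rich in the same chaperones, and all 6 measured markers of B and plasma cells had means above sham, with a median of 0.48. Of the 6, 2 (33.3%) were separated above sham, beside 24.7% of all genes. The part of these cells in the result was not tested.

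**Figure D2:**
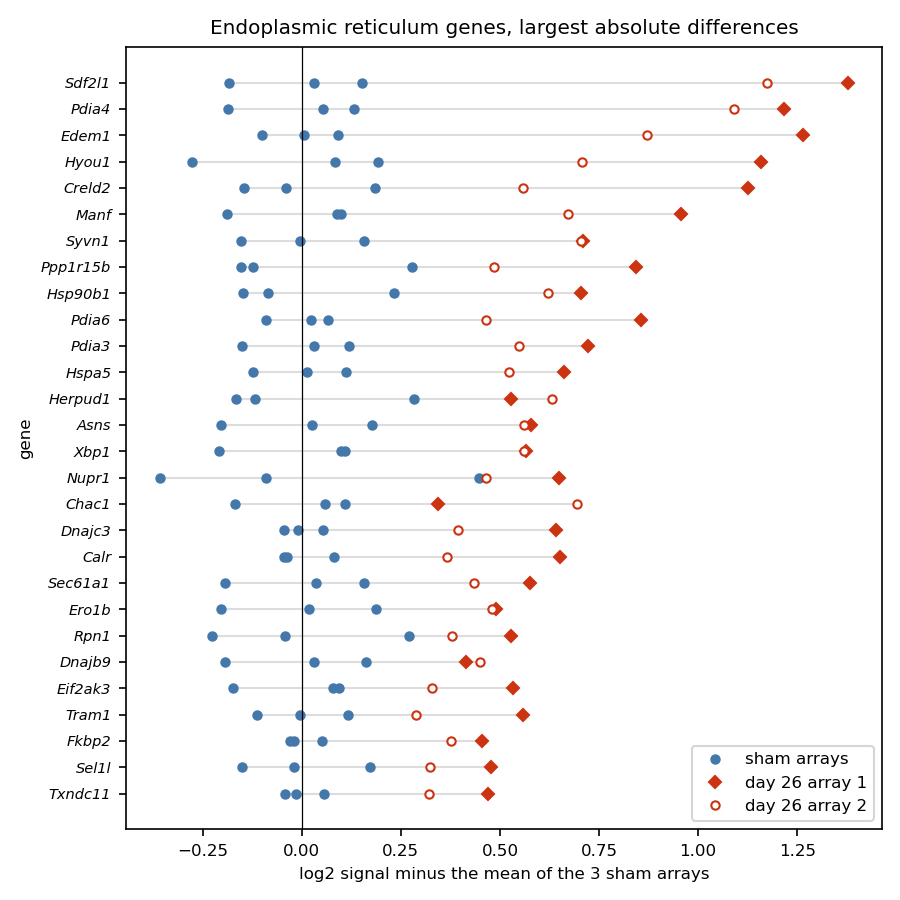
Log2 signal minus the mean of the 3 sham arrays for the 28 genes of the 5 reticulum lists with the largest absolute difference; blue points are sham arrays, filled diamonds day 26 replicate 1 and open circles day 26 replicate 2. All 28 lie to the right of 0, and replicate 1 lies to the right of replicate 2 in most of them.

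Small RNAs of the nucleolus and the Cajal body were above sham with a single exception. They guide the chemical modification of ribosomal and spliceosomal RNA, as H/ACA box RNAs for pseudouridine and C/D box RNAs for methylation, and most are cut from introns of other genes. Of 57 on the array 43 were bright enough to be tested, and 42 of these had a mean above sham, with a median of 0.50 against 0.05 over all genes. In 28 (65.1%) both day 26 arrays lay above all sham arrays, beside 24.7% of all genes, and none lay below. Both classes shared this: 18 of 18 H/ACA RNAs had means above sham with a median of 0.49, and 20 of 20 C/D RNAs with a median of 0.52. The exception was Rnu12, the U12 RNA for rare introns, at -0.02 ± 0.19. None passed the adjusted test.

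Scarna13, a Cajal body RNA, came nearest: 8.79 and 9.09 at day 26 against 7.59, 8.27 and 7.54 in sham, a difference of 1.14 ± 0.19 with an adjusted p of 0.0528. The second sham array was the highest of the 3 and still lay below both day 26 arrays. Snora16a read 7.30 and 7.44 against 6.80, 6.63 and 6.24, a difference of 0.81 ± 0.19. Snord104 read 10.55 and 10.42 against 10.01, 9.83 and 9.82, a difference of 0.60 ± 0.13. Snord14e was 0.90 ± 0.30 above sham and Snord15b 0.71 ± 0.19. Neither of the first 2 small RNAs was above the earlier proton days: against their mean, day 26 stood at -0.05 for Scarna13 and -0.18 for Snora16a, and over the 43 the median against those days was 0.16. Genes with a second probe set gave like values: 0.55 and 0.46 for Snora3, and 0.68 and 0.66 for Snora21.

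The genes around these RNAs lay on both sides of sham. RefSeq places 19 of the small RNAs within a measured gene, 17 genes in all, many of them for ribosomal proteins. The median of these 17 was -0.04 and 7 had a mean above sham, while the 19 small RNAs had a median of 0.47. In 18 of the 19 the difference of the small RNA lay above that of the gene around it, although in size Ncl (-0.17) differed slightly more than Snord82 within it (0.15). Snora62 was 0.52 above sham while Rpsa, which holds it, was at -0.21, and Snora21 was 0.68 above while Rpl23 was at -0.08. Gas5, a noncoding RNA whose product is mainly its small RNAs, was the exception at 0.55 ± 0.14, above the 0.41 of Snord47, although the mean of its 4 probe sets was at -0.11. Rpsa and Rpl23 also changed sign with the mean of their probe sets, to 0.04 and 0.12. Of 18 genes for core proteins of these particles and of the minor spliceosome, 3 (16.7%) were separated above sham and 1 (5.56%) below. Over all genes these shares were 24.7% and 14.1%. The median of the 18 was -0.10, which was -0.03 without day 26 replicate 1 and 0.02 with the marker score in the model. Short structured RNAs are caught unevenly by RNA extraction and labelling, and whether that differed between arrays was not tested. With the marker score of other cells in the model the median of the 43 was 0.59.

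**Figure D3:**
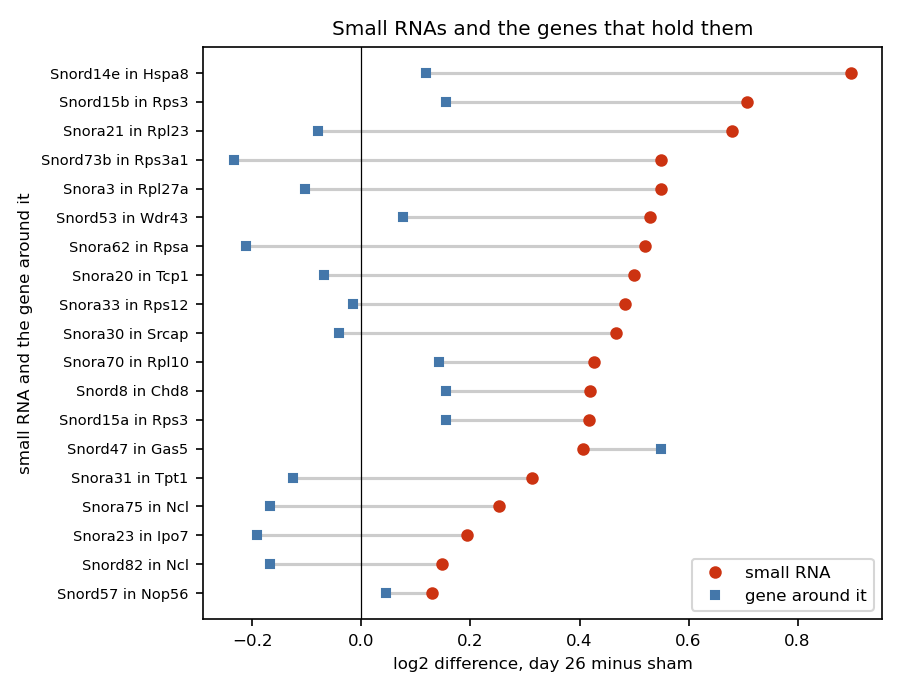
Log2 difference, day 26 minus sham, of each small RNA that lies within a measured gene (red circles) and of that gene (blue squares), 1 line a pair. The small RNAs lie between 0.13 and 0.90 and the genes around them between -0.23 and 0.55, and the small RNA is to the right in 18 of 19 pairs.

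Several T cell genes were well above sham in these heart cell preparations. Others, such as Cd2, Cd3d and Zap70, overlapped sham, as did the granzyme genes of killer cells. Cd8b1 and Cd8a encode the chains of the CD8 co-receptor. Cd8b1 read 7.66 and 7.16 at day 26 against 4.38, 4.09 and 4.45 in sham, a difference of 3.10 ± 0.55. Cd8a read 6.53 and 6.04 against 4.63, 4.50 and 4.73, a difference of 1.67 ± 0.29. Their sham signals lay under the median probe set, where no detection limit is known, so no fold is given. The groups lay far apart in both, and both had an adjusted p of 0.0528. Cd3e, a chain of the T cell receptor complex, read 6.79 and 6.65 against 5.85, 5.93 and 5.96, which is 0.80 ± 0.19, and Cd4 read 6.19 and 6.17 against 4.94, 4.85 and 5.30, which is 1.15 ± 0.40. Thy1, which fibroblasts also express, was 1.40 ± 0.33 above sham. Of 7 measured markers of T and natural killer cells, 6 (85.7%) had a mean above sham and were separated from it. The share of all genes separated above sham was 24.7%. Cd8b1 and Cd8a passed the signal filter only through proton arrays, day 26 among them, so the filter itself adds to the 85.7%. The median of the 7 was 1.15, and Cd247 was at -0.09 ± 0.20. Bulk RNA cannot tell more cells of a type from more RNA per cell.

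A further 8 markers of that list were too dim for the test, so the 7 are those bright enough on average over all arrays. Of the 8, 5 had a mean above sham and 3 below, and 2 were separated above it. Cd3g read 5.71 and 5.32 at day 26 against 3.17, 4.04 and 3.90. Gzmb, a granule protease of active killer cells, read 4.18 and 4.48 against 4.22, 4.87 and 4.05 and overlapped sham. So did Gzma, Klrd1, Cd2, Cd3d and Zap70. Day 26 was not the only time with high CD8 signals: mean Cd8b1 was 7.19 ± 0.15 (SD) on day 5, 5.26 ± 1.03 on day 1 and 5.38 ± 1.62 on day 12, and 4.04 ± 0.37 on day 3. Against the mean of the other proton days, Cd8b1 was 1.94 higher at day 26 (adjusted p 0.157).

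Genes of antigen presentation by MHC class II stood above sham too, 9 of 9, with a median of 0.90. Of the 9, 7 (77.8%) were separated above sham, beside 24.7% of all genes. Cd74, the invariant chain, read 9.53 and 9.38 against 8.35, 8.25 and 7.68, a difference of 1.37 ± 0.46. H2-Eb1 read 8.85 and 8.45 against 7.63, 7.35 and 7.06, which is 1.30 ± 0.37, and H2-Ab1 was higher by 1.29 ± 0.38. None overlapped sham or passed the adjusted test. With the marker score in the model the median of the 9 was 0.56, and that of the T cell list 1.00. Against the earlier proton days the median of the 9 was 0.81. The mean of the 9 on day 12 replicate 2 was 0.67 above their mean over the 14 samples of the fit. On the day 26 arrays it was 0.60 and 0.55 above.

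Markers of the other resident cells were above sham with more overlap. All 18 endothelial markers had means above sham, with a median of 0.47. So did 15 of 16 fibroblast markers, with 0.56, and 20 of 21 macrophage and monocyte markers, with 0.49. In the same order 7 (38.9%), 9 (56.25%) and 14 (66.7%) were separated above sham, beside 24.7% of all genes. The endothelial markers averaged 8.28 and 7.78 on the 2 day 26 arrays and 7.41, 7.80 and 7.48 on the sham arrays, and the fibroblast markers 8.39 and 7.79 against 7.47, 7.62 and 7.35. Day 26 replicate 1 was thus the higher array and replicate 2 lay at or near the range of sham. Leaving out replicate 1 lowered the medians to 0.24 for endothelial and 0.32 for fibroblast markers. Leaving out sham replicate 3 lowered that of macrophage markers to 0.32. Against the earlier proton days the 3 medians were 0.28, 0.18 and 0.21. Day 12 replicate 2 stood above both day 26 arrays. Its list means deviated by 0.58, 0.72 and 0.80 from the mean over the 14 samples. Day 26 replicate 1 deviated by 0.54, 0.62 and 0.29, and replicate 2 by 0.05, 0.02 and 0.17. Day 3 replicates 1 and 2 lay below 0 in each list. Of 36 matrix genes 34 had a mean above sham, with a median of 0.34 that fell to 0.13 without day 26 replicate 1. With the marker score in the model it was -0.00. That score holds collagens and other matrix genes among its fibroblast markers, so this value was pulled toward 0 in advance.

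Inflammatory lists stood above sham to a similar degree. Of 23 interferon-stimulated and MHC class I genes 22 had a mean above sham with a median of 0.34, of 23 cytokine and adhesion genes driven by NF-kB 22 with 0.40, and of 17 complement genes 14 with 0.50. With the marker score in the model these medians were 0.03, 0.23 and -0.09. The macrophage markers in that score include the complement genes C1qa, C1qb and C1qc, so the last value is not independent of the score. Without day 26 replicate 1 the interferon median was 0.20, and without sham replicate 3 the complement median was 0.27. Tap1, the peptide transporter of MHC class I, read 7.34 and 7.02 against 6.01, 6.89 and 6.09, a difference of 0.85 ± 0.31. Rela, the main activating subunit of NF-kB, read 8.09 and 8.12 against 7.62, 7.69 and 7.79, which is 0.41 ± 0.12, and the chemokines Ccl5, which T cells release, and Cx3cl1 were higher by 0.40 ± 0.12 and 0.44 ± 0.13. None overlapped sham, and none passed. In TGF-beta signalling 21 of 24 genes had a mean above sham with a median of 0.25 that was 0.11 without day 26 replicate 1, 0.38 without replicate 2 and 0.05 with the marker score. Its member with the lowest p was Ccn2, a matrix-associated growth factor target, at 9.41 and 9.23 against 8.40, 8.03 and 8.80 (0.91 ± 0.22). Jund, a subunit of AP-1, read 8.40 and 8.14 against 7.76, 7.60 and 7.82 (0.54 ± 0.10, adjusted p 0.0685). The other immediate early genes followed single arrays: the list median of 0.32 was -0.02 without day 26 replicate 1.

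Several adipocyte and atrial genes also followed replicate 1. Of 8 measured adipocyte markers 7 had a mean above sham, with 5 (62.5%) separated above and 1 (12.5%, Cidea) below. Their median of 0.88 was 0.53 without replicate 1 and 1.34 without replicate 2. The 11 atrial and natriuretic genes were mixed, with 4 (36.4%) separated above sham and 2 (18.2%) below. Their median of 0.24 was 0.01 without replicate 1. Over all genes 24.7% were separated above sham and 14.1% below. Car3, an abundant adipocyte enzyme, read 9.56 and 8.25 against 6.32, 7.00 and 6.18, a difference of 2.41 ± 0.82, and Cidec, which coats fat droplets, read 6.64 and 5.45 against 4.08, 4.66 and 4.15, which is 1.75 ± 0.59. Myl7, the atrial light chain, read 9.64 and 8.03 against 7.20, 5.72 and 6.72, a difference of 2.29 ± 0.63, and Myl4, another atrial light chain, read 10.96 and 9.24 against 9.17, 6.63 and 8.50. Both day 26 arrays exceeded sham in each of these 4 genes, and replicate 1 was at least 1 log2 unit above replicate 2. The sham signals of Cidec lay under the filter of 5.00, so it passed only through proton arrays, and the filter adds to the 62.5%. Of the natriuretic peptide genes, markers of load on the heart, Nppa read 11.20 and 10.15 against 10.20, 10.31 and 10.41 and overlapped sham. Nppb read 11.67 and 11.58 against 11.47, 11.48 and 11.21, without overlap and with a difference of 0.24 ± 0.12.

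Several red cell and platelet genes lay below sham, but not all of that list. Alas2, the first enzyme of haem synthesis in red cells, read 7.75 and 6.39 at day 26 against 8.09, 10.24 and 8.50, a difference of -1.87 ± 0.87. Slc4a1, the red cell anion exchanger, read 4.41 and 4.45 against 5.69, 7.23 and 5.74, which is -1.79 ± 0.73, and Ppbp, a platelet chemokine, was at -1.71 ± 0.67. Pf4, another platelet chemokine, stood on the other side at 7.65 and 7.48 against 7.42, 7.45 and 6.94 (0.30 ± 0.40), and Klf1 and Gp9 overlapped sham. The second sham array was the highest in Alas2 and Slc4a1. Of 7 measured erythroid and platelet markers 3 had a mean above sham. Separated below sham were 4 (57.1%) and above 1 (14.3%), beside 14.1% and 24.7% of all genes. The list median was -1.14, or -0.73 without sham replicate 2, and none passed the adjusted test.

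**Figure D4:**
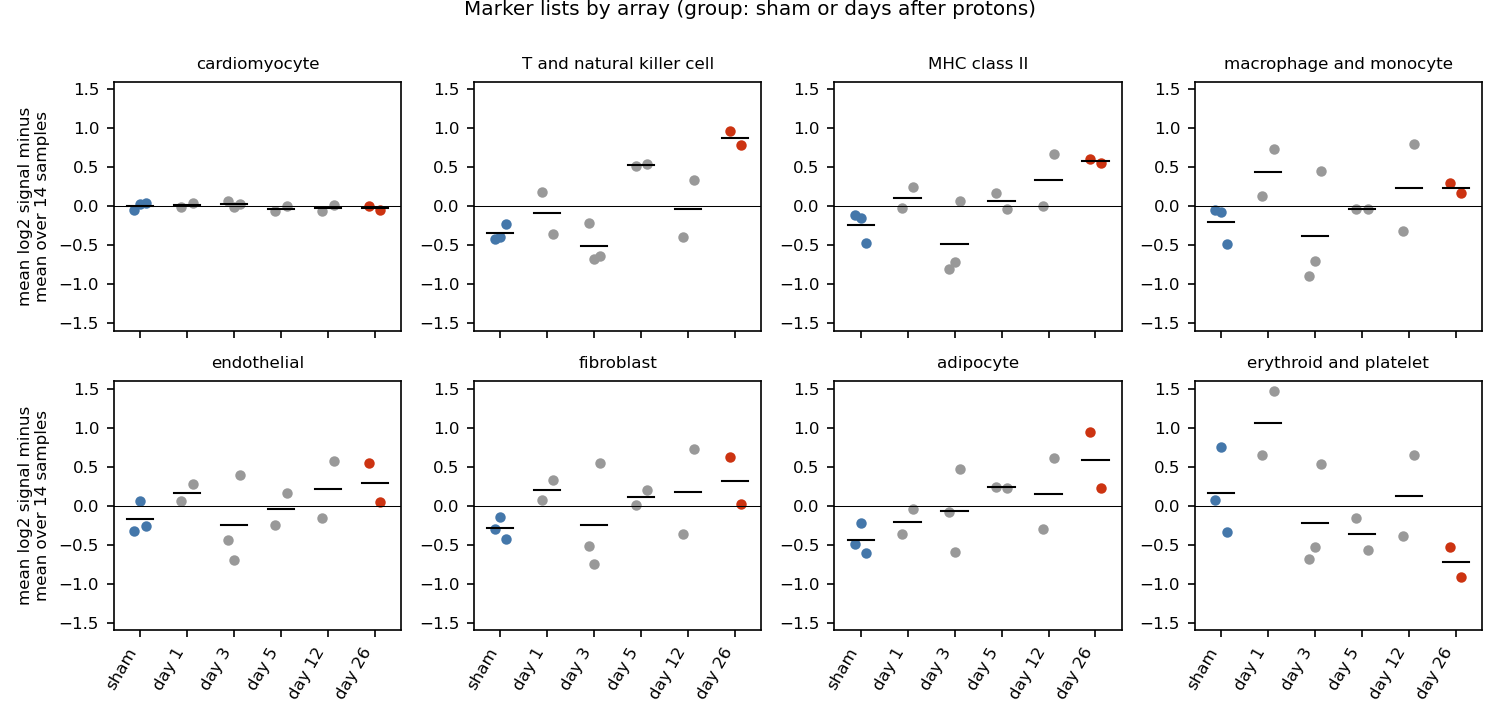
Mean log2 signal of 8 marker lists in each sample, minus the mean over the 14 samples of the fit, by group; points are samples (sham blue, day 26 red, other proton days grey) and bars group means. The cardiomyocyte list is flat, the T cell list is highest on day 26 at 0.96 and 0.79, and the erythroid list stands there at -0.53 and -0.91.

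Heat shock proteins outside the reticulum were higher in part. The list is mainly cytosolic and also holds the mitochondrial Hspd1 and Hspe1. All 26 on the array were measured, and 21 had a mean above sham with a median of 0.22. Separated above sham were 14 (53.8%) and below 2 (7.69%), beside 24.7% and 14.1% of all genes. Without sham replicate 2 the median was 0.13. The most inducible members depended on the sham array they were set against: Hspa1a read 11.12 and 11.15 at day 26 against 10.40, 8.79 and 10.82, and Dnajb1 read 9.84 and 9.59 against 9.02, 7.05 and 9.58, with the second sham array far below the others. Steadier members were Hsph1, at 8.37 and 8.21 against 7.52, 7.38 and 7.67 (0.77 ± 0.16, adjusted p 0.095), Hspb1 at 0.53 ± 0.12, and Bag3, the co-chaperone that clears damaged sarcomere proteins, at 10.12 and 10.18 against 9.64, 9.44 and 9.82 (0.52 ± 0.11). Hspb7 and Hspb3, small heat shock proteins of muscle, were separated below sham at -0.20 ± 0.06 and -0.40 ± 0.22. With the marker score in the model the median was 0.30. The heat shock element, GAA, TTC and GAA parted by 2 bases each, stood in the promoter windows of 57 tested genes, whose median was 0.05.

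The proteasome, which degrades what the reticulum exports, stood on the other side. Only 2 of 34 subunits had a mean above sham, the median was -0.17, and 14 (41.2%) were separated below sham, where 14.1% of all genes were. Psmb6, a catalytic subunit, read 9.49 and 9.31 against 9.76, 9.87 and 9.84, a difference of -0.42 ± 0.08 with an adjusted p of 0.0619. Psmd13, a lid subunit, read 7.94 and 7.84 against 8.27, 8.07 and 8.29, which is -0.32 ± 0.10. The list stayed below 0 under each scaling, at -0.18 after quantile normalization and -0.28 with equal medians. It came to -0.11 with the marker score in the model and to -0.11 without day 26 replicate 2. Against the earlier proton days its median was only -0.03, and 13 of the 34 subunits were above those days.

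Muscle and energy genes lay slightly below sham. Median differences were -0.06 over 35 genes of respiratory complex I, -0.07 over 38 of complexes II to V, -0.07 over 25 of the citric acid cycle, -0.10 over 25 of glycolysis and -0.05 over 32 of the sarcomere and Z-disc, with 28.6%, 31.6%, 28%, 32% and 37.5% of members separated below sham, beside 14.1% of all genes. These lists are bright, and of the 6132 genes with a mean over the 75th percentile of probe sets 1154 were separated below sham. Leaving out any 1 array kept these 5 medians between -0.13 and -0.02. With the marker score in the model they were, in the same order, -0.0008, -0.02, -0.07, -0.09 and -0.05. After quantile normalization they were -0.05, -0.04, -0.07, -0.09 and -0.02. Against the earlier proton days they were -0.01, -0.01, -0.07, -0.02 and 0.01. Pyruvate dehydrogenase, which feeds the cycle, held the clearest members: its phosphatases Pdp2 and Pdp1 were at -0.58 ± 0.18 and -0.48 ± 0.12, and its subunits Pdhx and Dlat at -0.29 ± 0.10 and -0.28 ± 0.08. All 4 were separated below sham and none passed. Ndufb3 of complex I read 8.45 and 8.35 against 8.87, 8.72 and 9.05, which is -0.48 ± 0.10. The main myosin chain of the adult ventricle, Myh6, read 11.92 and 11.83 against 11.86, 11.93 and 11.93, and the fetal chain Myh7 read 7.50 and 6.89 against 6.66, 7.12 and 6.57. Both overlapped sham.

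Calcium handling, the other task of the reticulum in this cell, showed no common direction. Of 22 measured genes 10 had a mean above sham, and 2 (9.09%) were separated on each side. Over all genes 24.7% were separated above sham and 14.1% below. Trdn, which encodes triadin and ties the calcium store to its release channel, read 9.81 and 10.48 against 10.74, 10.63 and 10.68. The difference was -0.54 ± 0.15, with day 26 replicate 1 far below replicate 2. The other probe sets of Trdn were all below sham, those nearly as bright at -0.27 and -0.77 and dimmer ones down to -1.51. Hrc, a calcium-binding protein of the store, read 10.04 and 10.07 against 9.64, 9.77 and 9.78, which is 0.33 ± 0.07. Neither passed. In fatty acid use Ucp3, a mitochondrial carrier induced by fat, was at -0.69 ± 0.20 and Slc27a1, a fatty acid transporter, at 0.40 ± 0.12, and in oxidative stress defence Gclm, of glutathione synthesis, read 7.15 and 7.26 against 7.63, 7.77 and 7.72 (-0.50 ± 0.14).

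Other members of the families of Pde7a and Car14 stood on either side of sham. Of 15 measured phosphodiesterases 6 had a mean above sham, and the median was -0.04, or 0.04 without day 26 replicate 2. Pde1c, the calcium-activated form of cardiomyocytes, read 6.70 and 6.60 against 7.23, 7.38 and 7.61, a difference of -0.76 ± 0.18, opposite in sign to Pde7a. Pde4a and Pde7b were both at -0.37, with SE of 0.11 and 0.12. Of 12 carbonic anhydrases and pH transporters, only Car14 and Car2 (16.7%) were separated below sham and 4 (33.3%) above. Over all genes these shares were 14.1% and 24.7%. Car2, which red cells carry in quantity, was at -0.95 ± 0.65. The list median of 0.05 turned to -0.06 with equal medians.

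Several single genes just missed the threshold of 0.05, at an adjusted p of 0.0528. Angpt1, the ligand that steadies vessels through the Tie2 receptor, read 6.47 and 6.27 at day 26 against 7.20, 7.22 and 7.48, a difference of -0.93 ± 0.14. Prkab1, a regulatory subunit of the energy sensor AMPK, was at -0.53 ± 0.09, and Ehd4, of membrane recycling, read 9.88 and 9.73 against 10.23, 10.14 and 10.27 (-0.41 ± 0.07). Orai2, a calcium entry channel, read 6.74 and 6.81 against 5.99, 5.37 and 5.66, which is 1.11 ± 0.20, while its second, dimmer probe set was at 0.15. P4ha1, the prolyl hydroxylase of collagen in the reticulum, was 0.75 ± 0.13 above sham, and Hsd17b7, of cholesterol synthesis, at -0.77 ± 0.14. Also at this value were Rnf122 (0.78 ± 0.13), Ces1d (0.59 ± 0.10), Banp (0.66 ± 0.11), Slc25a36 (0.43 ± 0.08, with a second probe set at 0.20), Cdc42ep2 (0.77 ± 0.13), Cnksr3 (0.64 ± 0.11) and 1700025G04Rik (-0.65 ± 0.10). The next gene in order was Hexdc, a hexosaminidase, at an adjusted p of 0.0538 (1.06 ± 0.19). In all of these both day 26 arrays were on one side of all sham arrays, as in 38.8% of all genes. They were picked by low p on the same arrays, so this separation follows largely from the choice and adds no support.

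Electrical, clock and damage genes are given here mostly as single members. Of 23 ion channel and gap junction genes 6 (26.1%) were separated below sham and 2 (8.70%) above, beside 14.1% and 24.7% of all genes. Their median was -0.08, or -0.12 with the marker score in the model. Kcnh2, the repolarising potassium channel, read 7.73 and 7.87 against 8.24, 8.50 and 8.30 (-0.55 ± 0.10, adjusted p 0.0653). The core clock list had a median of -0.01. Ciart, a repressor of the clock, read 5.38 and 5.21 against 6.63, 5.99 and 6.67 (-1.13 ± 0.28), its partner output gene Dbp was at -0.55 ± 0.12, and Nfil3, which acts against Dbp, read 7.19 and 7.07 against 6.59, 6.22 and 6.34 (0.75 ± 0.14, adjusted p 0.0685). The hour of tissue collection was not given in the labels. Of 24 p53 targets 17 had a mean above sham, with a median of 0.06 that turned to -0.05 with equal medians. Phlda3, an inhibitor of Akt, read 7.15 and 6.91 against 6.52, 6.42 and 6.45 (0.57 ± 0.12, adjusted p 0.0867), and Trp53inp1 was 0.70 ± 0.26 above sham. In double-strand break repair, Rad50 read 5.60 and 5.84 against 6.10, 6.42 and 6.34 (-0.57 ± 0.17). Other genes of interest were Lcn2, an iron-binding protein of inflammation, at 7.44 and 7.86 against 8.46, 8.96 and 8.54 (-1.01 ± 0.26), Rnf144b at 0.56 ± 0.13 and Ctnnal1 at -0.35 ± 0.14.

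MicroRNAs silence messengers that match their seed, bases 2 to 8. These arrays measure transcripts of the gene region and do not separate the mature arms. Of 300 on the array 69 were bright enough to be tested, of which 59 had a mean above sham. The median was 0.25, and none passed the adjusted test. Separated above sham were 35 (50.7%) and none below, beside 24.7% and 14.1% of all genes. Mir27a read 5.79 and 6.07 at day 26 against 5.31, 4.65 and 5.09, a difference of 0.91 ± 0.23, and Mir219a-1 read 7.42 and 7.44 against 6.77, 7.04 and 6.81, which is 0.56 ± 0.16. Mir99a had the opposite sign and overlapped sham, at 4.47 and 5.01 against 4.99, 5.31 and 5.45 (-0.51 ± 0.20). The mature sequences of these genes (RefSeq, GRCm38.p6) are shown because they are the members with the lowest p in each direction, with the seed in capitals.
miR-27a-5p: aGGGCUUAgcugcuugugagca
miR-27a-3p: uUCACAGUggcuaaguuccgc
miR-219a-5p: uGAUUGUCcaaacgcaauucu
miR-219a-1-3p: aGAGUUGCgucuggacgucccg
miR-99a-5p: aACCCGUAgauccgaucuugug
miR-99a-3p: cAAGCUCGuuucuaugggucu

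**Figure D5:**
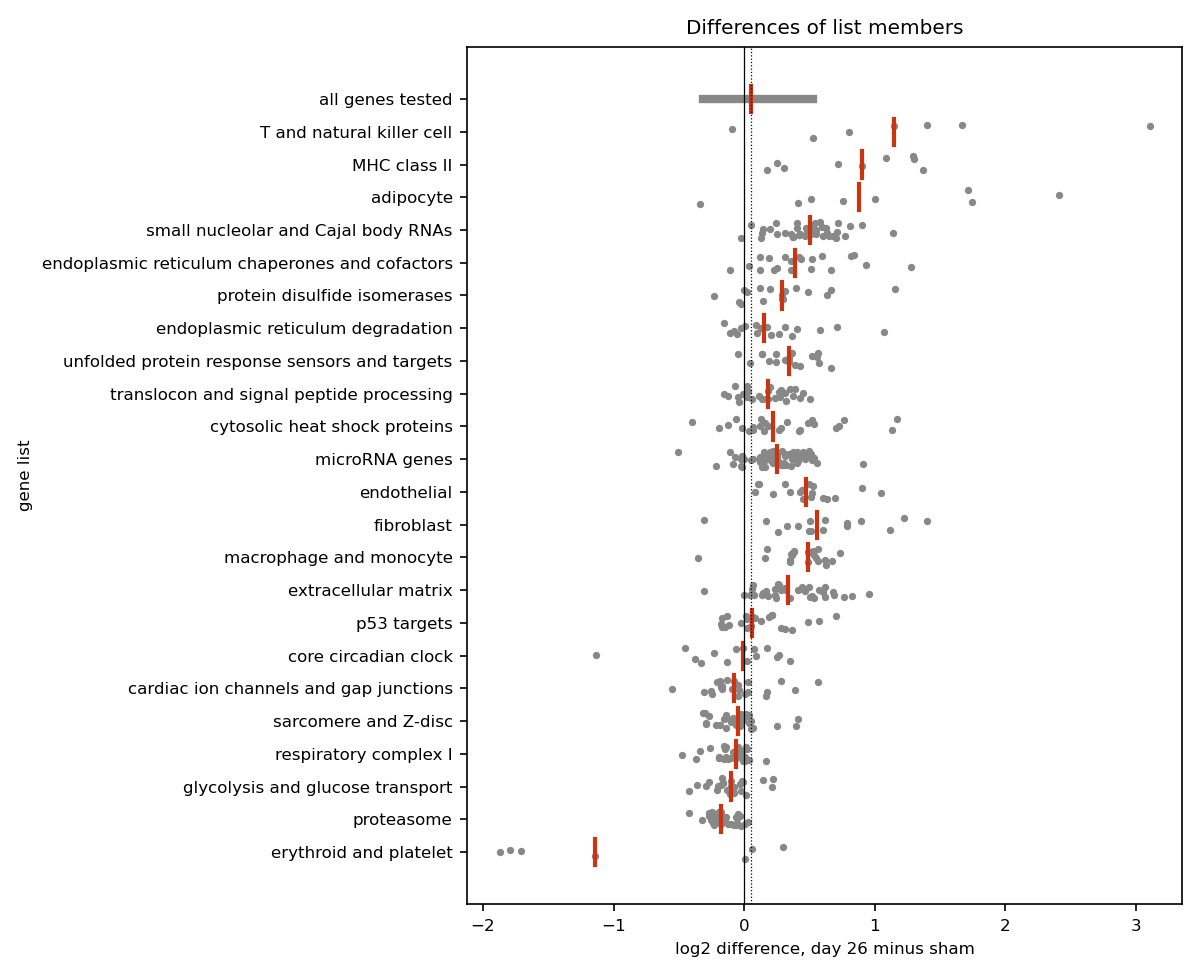
Log2 difference, day 26 minus sham, of every measured member of 23 gene lists (grey points), with the median of each list in red; the grey bar at the top spans the middle 90% of all 12102 genes, and the dotted line is their median of 0.05. The small nucleolar RNAs (median 0.50) and reticulum chaperones (0.39) lie to the right and the proteasome (-0.17) to the left.

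A second comparison set day 26 against the equally weighted mean of proton days 1, 3, 5 and 12, which does not use the sham arrays. Of 12102 genes 0 passed (0%) in limma, with or without moderation of the variances, and 1573 (13%) had an unadjusted p of at most 0.05. The count was 302 with the marker score of other cells in the model, 91 with array weights and 18 when all 15 arrays were kept as separate samples. The smallest adjusted p was 0.088, shared by Dhrs7c, Cnksr3, Bag3 and Angpt1. Dhrs7c, a sarcoplasmic reticulum protein of muscle, read 9.30 and 9.19 at day 26 against a mean of 10.02 on those days, a difference of -0.78 ± 0.11, and its sham arrays stood at 9.65, 9.82 and 10.05. Angpt1 was at -0.81 ± 0.12, Bag3 at 0.60 ± 0.09 and Cnksr3 at 0.64. The fifth gene, Cyb5d1, was at -1.37, with an adjusted p of 0.0888. Its second probe set, about as bright, was at -0.08 against sham where the one used was at -1.30. The heat shock list had a median of 0.30 here, with 24 of 26 members above the earlier days, against 0.16 for the chaperones of the reticulum and 0.04 over all genes. Sdf2l1 was 0.83 above the earlier days (adjusted p 0.0956) and Syvn1 0.50 above (adjusted p 0.103), while Hspa5 was 0.27 above and Hsp90b1 0.14.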

How the data were processed

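The authors deposited log2 signals of 34760 probe sets on 15 Affymetrix Mouse Gene 1.0 ST arrays. The submitters' processing notes name MAS5 without a version; normalization is not given in the sources used here. Array medians ran from 4.90 to 5.16, with values between 0.123 and 12.9. Precision depends on how many arrays there are. Of the probe sets 21640 had 1 gene symbol, 1321 had several and 11799 had none in the platform annotation. Each of 19937 genes was read from its probe set with the highest mean over all arrays, and 12102 with a mean above 5.00, the median of all probe sets, were kept.

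Day 5 replicates 1 and 2 of the proton groups differed by an SD of 0.0768, against 0.222 to 0.527 in the other 104 pairs of arrays, so they were averaged and counted as 1 sample. limma 3.58.1 (lmFit, eBayes with a variance trend, R 4.3.3) was fitted to 14 samples in 6 groups, with 2 contrasts and Benjamini-Hochberg adjustment over all genes, and was tested on simulated data. Motifs and plots used Python 3.11.15, pandas 2.3.3, numpy 2.4.6 and matplotlib 3.10.9. Promoters and mature miRNAs came from RefSeq tables of GRCm38.p6. Alternatives changed scaling, filter, probe set rule, variance model, samples and covariates.

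Gene lists and members were chosen with earlier results of these data known. Named genes are those past the threshold, the 20 next by p, the 5 smallest p of the second contrast, and members of each list described, among them those with the largest differences, plus 17 genes picked singly (Nppa, Myh6, Lcn2 and others); genes of like pattern, also planned, are not reported here.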

Additional observations from a re-analysis of the deposited data

How the results depend on the processing

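The number of genes past the threshold was the quantity most open to processing. For day 26 against sham it was 5 as reported, 26 after quantile normalization, 0 with equal array medians, 12 without the signal filter, 23 with the filter at the 75th percentile, 3 without a variance trend and 25 with a robust variance prior. It was 309 with array weights, 46 with only sham and day 26 in the fit, 54 with all 15 arrays as separate samples and 133 with the score of non-myocyte markers added to the model. Leaving out 1 array at a time gave 0 to 41, and the second comparison, at 0, gave 0 to 4. In that second comparison array weights gave 91, the 15 separate arrays 18 and the marker score 302. The cause of these shifts was not tested. Over 31 pairs of samples with the same number the median correlation of deviations was 0.001, and 9 were above 0.1. Single pairs ran from -0.72 to 0.46. In groups of 2 arrays the deviations mirror each other, so values repeat and cannot decide whether same-numbered samples belong together. With the number as a replicate block, day 26 against sham gave 5 genes, of which Pde7a alone was among the 5 reported, and the second comparison 28. Genes whose arrays did not overlap numbered 4698 as deposited, 4484 after quantile normalization, 4769 with equal medians, 6703 without the filter and 2393 with the filter at the 75th percentile; these 4 alternatives were chosen after seeing the data.

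Differences near 0 changed sign. Ddit3 was at -0.023 after quantile normalization, -0.064 with equal medians and -0.039 with array weights, and Myh6 at 0.012 after quantile normalization. With the marker score in the model Cd247 was at 0.052, Nppa at -0.096 and Pf4 at -0.28. Leaving out 1 array at a time gave -0.26 to 0.27 for Ddit3, -0.19 to 0.013 for Cd247, -0.078 to 0.012 for Myh6, -0.15 to 0.89 for Nppa, -0.097 to 0.39 for Snord82 and -0.18 to 0.085 for Rnu12. When all probe sets of a gene were averaged, Gas5 was at -0.11, Rpl23 at 0.12 and Rpsa at 0.040. No other named gene changed sign between day 26 and sham under these alternatives. With the filter at the 75th percentile no member of the T cell list and of the B cell list was left. Only 2 arrays carry day 26, and without background signals no detection limit can be given for dim genes.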
